A study of Mus musculus with 3 samples.

Results

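The 37 genes described here are induced by type I interferons and make up the antiviral response of a cell. They were taken as a list of symbols for their known role, with earlier results of these data in view, and all 37 were found among the 28692 genes of the deposited matrices. Type I interferons (IFN-α and IFN-β) bind a receptor made of IFNAR1 and IFNAR2, and the kinases JAK1 and TYK2 then activate transcription factors such as STAT2. With IRF9, STAT2 is part of a complex that binds interferon-stimulated response elements in the promoters of the genes it turns on. In the liver the response is best known from viral infection, and Kupffer cells, the resident macrophages of the sinusoids, also meet bacterial products from the gut that can start it.

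The libraries came from liver macrophages of male mice aged 8 weeks. One mouse ate chow. The others ate the liquid Lieber-DeCarli diet, made with 5% ethanol, 1 of them over 3 days and the other over 10 days. Each group is 1 mouse and 1 10x Genomics 3′ library, and the strain is not given in the sources used here. The control ate solid chow, so an effect of ethanol and one of a liquid diet cannot be told apart, and neither can be told apart from differences between mice, sorts or libraries. Live non-parenchymal cells had been sorted for high F4/80 and intermediate CD11b, a gate meant for Kupffer cells. With 1 library a group there is no test between diets, and every interval below is a 95% interval that covers counting error only.

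Total depth was 21650747 UMIs (unique molecular identifiers, each marking 1 captured RNA molecule) for chow, 21471782 for 3 days and 16538895 for 10 days. Cells were barcodes with at least 1000 UMIs, at least 300 genes and at most 10% mitochondrial UMIs, which kept 2767, 4061 and 3014 barcodes. Pairs of libraries shared 13 to 20 of these barcodes, where random draws would share 11.3 to 16.6, and none was in all 3. After the cells with the highest doublet scores were removed, clusters with Kupffer markers held 2289 cells in chow, 3436 at 3 days and 2511 at 10 days, or 86.2%, 88.1% and 86.8% of cells. In them Clec4f, a lectin found on Kupffer cells, was at 4171, 4102 and 4134 CPM (its UMIs per total UMIs of the class and library, in the usual CPM scale). These clusters were named by their Kupffer markers, so this level describes them and is no separate check of the label. Endothelial-like cells numbered 41, 115 and 75, and lymphoid-like cells 138, 100 and 165. The Kupffer-like cells had medians of 4479, 2977 and 3001 UMIs and of 5.26%, 5.18% and 6.46% mitochondrial UMIs. Summed UMIs of 20 immediate-early genes, which respond to tissue handling among other things, were at 2131, 3526 and 3812 CPM in Kupffer-like cells, and their part in the results below was not tested.

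In Kupffer-like cells the interferon response genes were at their lowest after 10 days of the ethanol diet. Their summed level was 6046 CPM in chow, 5848 CPM at 3 days and 4426 CPM at 10 days. The 3-day library was thus at 0.967 of chow (0.957 to 0.978) and the 10-day library at 0.732 of chow (0.723 to 0.742). Because both ratios use the same chow library they are not independent, and 10 days over 3 days was 0.757 (0.747 to 0.767). In bulk sums of this kind, fewer cells that express a gene and less RNA per cell cannot be told apart.

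A single gene, Ifi27l2a, weighed heavily on this sum. It encodes a small interferon-induced membrane protein and supplied 28.2%, 21.3% and 18.6% of the summed UMIs in the chow, 3-day and 10-day libraries. Without it the sums were 4342, 4604 and 3604 CPM, so that 3 days over chow became 1.06 (1.05 to 1.07) and 10 days over chow 0.830 (0.818 to 0.842). The direction at 3 days therefore depended on Ifi27l2a, while the 10-day library stayed lower than both others. The bars of summed level show both versions.

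**Figure D1:**
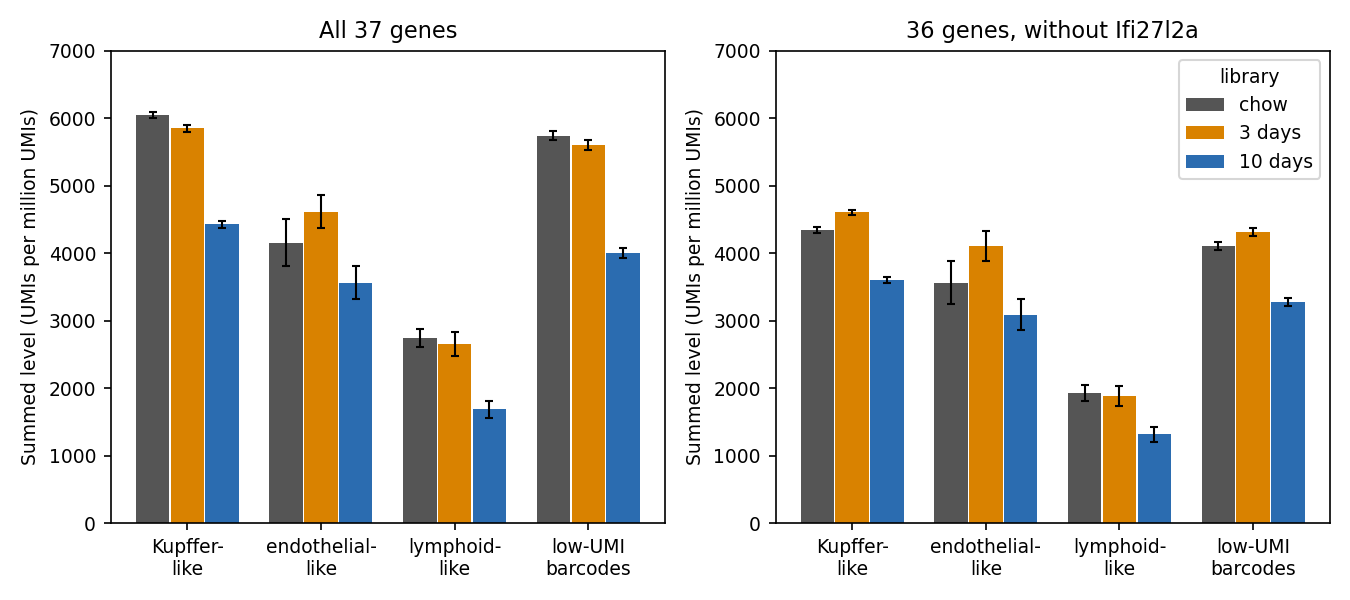
Summed level of the 37 genes (left) and of the 36 without Ifi27l2a (right) in CPM, by cell class and library, with bars from 0 and 95% Poisson intervals for counting error. In every class and in low-UMI barcodes the 10-day bar is the lowest, and in Kupffer-like cells without Ifi27l2a the 3-day bar (4604) is above the chow bar (4342).

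Gene by gene, no member was above a ratio of 1.5 or below 1/1.5 at 3 days over chow, where 3.43% of the 7511 measured genes were above 1.5 and 1.33% below 1/1.5. Genes averaging 10 CPM or more in the 3 libraries were taken as measured, and all 37 passed. Of the members, 24 were above 1 and 13 below 1, beside 43.9% of all measured genes below 1. Their median log2 ratio was 0.11, and that of all measured genes 0.04. Between 10 days and chow 9 members were below 1/1.5 and 0 above 1.5, where 2.6% of measured genes were below 1/1.5 and 3.9% above 1.5. The 9 were Isg15, Ifi27l2a, Ifit3, Irf7, Oas1a, Oasl2, Ifi44, Zbp1 and Xaf1. In all, 30 of the 37 were below 1, beside 39.4% of measured genes, and the median log2 ratio was -0.40 against 0.08 for all measured genes. Between 10 and 3 days 8 members were below 1/1.5 and 0 above 1.5, with 1.98% and 2.36% of measured genes past these limits. These were Usp18, Ifit3, Oasl2, Isg15, Mx1, Ifih1, Ifi27l2a and Oas3. In this comparison 35 members were below 1, beside 45.9% of measured genes, with a median log2 ratio of -0.43 against 0.02.

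**Figure D2:**
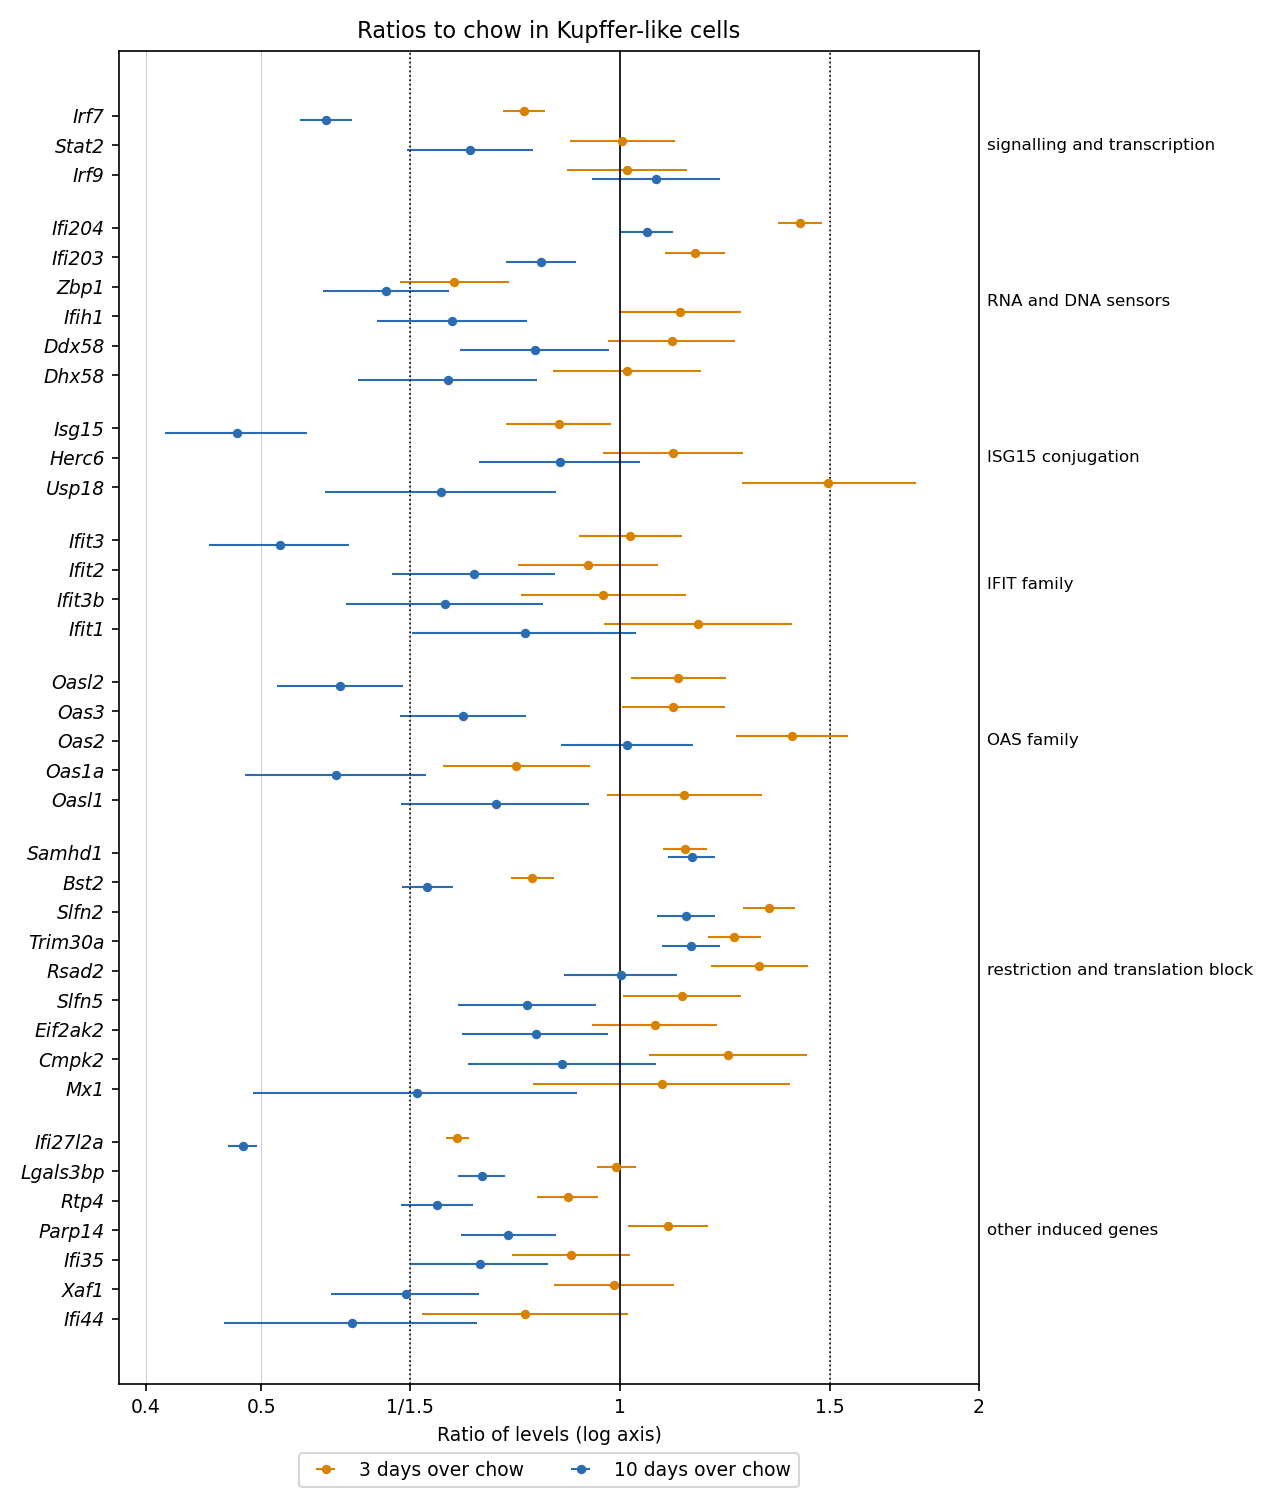
Ratio of the level at 3 days (orange) and 10 days (blue) to chow for each of the 37 genes in Kupffer-like cells, on a log axis, with 95% intervals for counting error and dotted lines at 1.5 and 1/1.5. No orange point lies past a dotted line, and 9 blue points lie below 1/1.5.

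Response elements bound by the complex of STAT2 and IRF9 typically hold GAAA, any 2 bases and GAAA again, and a promoter search shows which members carry them close to their start. RefSeq windows of GRCm38.p6, from 250 bases before to 50 bases after the start of transcription, were matched by symbol for 28 of the 37 members. No window was matched for Dhx58, Zbp1, Ifi204, Usp18, Oas2, Mx1, Ifi27l2a, Rtp4 and Parp14. Both strands were searched. The letters were in 15 of the 28 members and in 3.99% of all 27025 genes with a window. Overlapping copies were counted separately, as in Isg15. The core of the gamma-activated site, TTCNNNGAA, known from the response to interferon-gamma, was in 6 of the 28 members and in 9.55% of all genes. A match is a description of the letters only.

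The bases before the start of transcription of 5 members are printed 5′ to 3′ on the strand of the gene, in lower case with that response element core or its reverse complement in capitals. Isg15, Ifit3 and Oasl2 were chosen because they were below 1/1.5 at 10 days over chow. Rsad2 was chosen because its summed level was close to that of chow there, and Bst2 because it was higher in endothelial-like cells. Isg15 lies at chr4:156200819-156201068 on the minus strand, Ifit3 at chr19:34583279-34583528 on the plus strand, Oasl2 at chr5:114896684-114896933 on the plus strand, Rsad2 at chr12:26456453-26456702 on the minus strand and Bst2 at chr8:71537473-71537722 on the minus strand, as bases before their starts.
Isg15: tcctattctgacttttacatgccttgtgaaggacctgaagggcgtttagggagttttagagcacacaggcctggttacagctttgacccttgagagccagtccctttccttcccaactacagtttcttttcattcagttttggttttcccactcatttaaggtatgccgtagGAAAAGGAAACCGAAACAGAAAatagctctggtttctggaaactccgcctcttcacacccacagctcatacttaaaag
Ifit3: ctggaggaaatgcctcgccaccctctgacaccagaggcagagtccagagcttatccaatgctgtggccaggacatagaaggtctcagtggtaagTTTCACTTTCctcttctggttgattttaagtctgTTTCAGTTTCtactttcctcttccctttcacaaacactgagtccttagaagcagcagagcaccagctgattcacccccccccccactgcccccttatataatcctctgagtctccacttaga
Oasl2: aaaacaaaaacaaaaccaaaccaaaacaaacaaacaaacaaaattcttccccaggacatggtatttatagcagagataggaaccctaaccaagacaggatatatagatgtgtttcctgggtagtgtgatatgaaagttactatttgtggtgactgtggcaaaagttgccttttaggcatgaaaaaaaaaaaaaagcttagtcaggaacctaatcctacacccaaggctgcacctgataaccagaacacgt
Rsad2: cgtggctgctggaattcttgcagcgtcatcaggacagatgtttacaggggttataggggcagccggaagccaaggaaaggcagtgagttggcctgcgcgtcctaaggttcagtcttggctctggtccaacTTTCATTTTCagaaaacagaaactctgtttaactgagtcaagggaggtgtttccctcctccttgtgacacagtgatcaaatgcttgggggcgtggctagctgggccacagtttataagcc
Bst2: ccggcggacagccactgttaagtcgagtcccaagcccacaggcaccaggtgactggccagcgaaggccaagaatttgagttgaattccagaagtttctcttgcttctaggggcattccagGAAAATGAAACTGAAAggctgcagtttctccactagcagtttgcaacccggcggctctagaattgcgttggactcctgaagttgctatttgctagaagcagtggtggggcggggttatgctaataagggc
Isg15 held 3 overlapping copies, the first starting 78 bases before transcription. Ifit3 and Bst2 held 2 copies each, and Rsad2 held 1. No match was found in the window of Oasl2, which says only that these letters are not in these bases. Of the 9 members below 1/1.5 at 10 days over chow, 7 had a window and 3 of these held the letters, beside 12 of the 21 other members with a window.

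Among the genes of signalling and transcription, Irf7, the factor that amplifies interferon production, was the most abundant in Kupffer-like cells at 472, 392 and 267 CPM for chow, 3 days and 10 days. Its ratio to chow was 0.830 (0.798 to 0.865) at 3 days and 0.566 (0.539 to 0.596) at 10 days, so that no pair of libraries overlapped within counting error. Stat2, which carries the signal from the receptor, was at 68.7, 69.1 and 51.5 CPM. Its partner Irf9 was at 53.0, 53.7 and 56.9 CPM and differed by less than counting error in each comparison with chow. The 3 genes thus split, with Irf7 low at both times, Stat2 low at 10 days and Irf9 near the chow level. Irf9 is uncertain, since Rnf31 overlaps it on the same strand and was at 55.4, 56.9 and 43.9 CPM. Irf7 overlaps Phrf1 on the opposite strand, and the strand used in counting is not given in the sources used here. Phrf1 was at 24.2, 29.2 and 28.6 CPM.

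RNA and DNA sensors summed to 1.22 of chow (1.18 to 1.252) at 3 days and to 0.906 (0.875 to 0.938) at 10 days. Without Ifi204 the other 5 were at 1.05 (1.01 to 1.10) and 0.787 (0.749 to 0.826), so the 3-day value was mostly that of 1 gene. Ifi204, a DNA-binding protein of the PYHIN family, was the most abundant of them at 327, 464 and 345 CPM, with a 3-day ratio of 1.42 (1.36 to 1.48). Its neighbour on chromosome 1, Ifi203, was at 198, 229 and 169.9 CPM. Ifi203 is overlapped on the same strand by Mndal, at 253, 327 and 243 CPM, so its level is uncertain. Ifih1 encodes MDA5, a sensor of long double-stranded RNA, and was at 49.5, 55.6 and 35.8 CPM. The 10-day level of Ifih1 was below both others, at 0.723 of chow (0.625 to 0.835). Ddx58, the gene of RIG-I, which detects viral RNA ends, was at 45.6, 50.4 and 38.6 CPM, and Dhx58, the gene of the regulator LGP2, was at 35.1, 35.6 and 25.2 CPM. Zbp1, a sensor of Z-form nucleic acids that can start necroptosis, went against the group at 3 days with 76.1, 55.3 and 48.4 CPM. For Zbp1 the ratio to chow was 0.726 (0.653 to 0.807) at 3 days and 0.636 (0.563 to 0.718) at 10 days.

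ISG15 is a ubiquitin-like protein that is attached to other proteins, and its gene showed the lowest 10-day ratio of all 37. Isg15 was at 73.3 CPM in chow (798 UMIs), 65.1 CPM at 3 days (732 UMIs) and 35.0 CPM at 10 days (286 UMIs). The ratio at 10 days was 0.477 of chow (0.415 to 0.547) and 0.537 of 3 days (0.467 to 0.616). Usp18, which removes ISG15 and also damps the interferon receptor, had the highest 3-day ratio of all 37. It was at 21.6, 32.3 and 15.3 CPM, a 3-day ratio of 1.496 (1.27 to 1.77) that lay just inside the limit of 1.5. Its 10-day level was 0.473 of the 3-day level (0.383 to 0.581). Herc6, the main ISG15 ligase of the mouse, was at 37.8, 41.8 and 33.6 CPM, a smaller difference whose interval included 1 in both comparisons with chow.

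The IFIT family, whose proteins bind foreign RNA and block its translation, lies in a row on chromosome 19. Its sum was level at 3 days, at 1.01 of chow (0.945 to 1.08), and at 0.652 of chow (0.6005 to 0.708) at 10 days, or 0.759 (0.683 to 0.842) without Ifit3. Ifit3 had the lowest 10-day ratio of its 4 genes, with 71.8, 73.2 and 37.2 CPM and a 10-day ratio of 0.518 (0.452 to 0.592). Ifit2 was at 40.7, 38.3 and 30.7 CPM, Ifit3b at 29.1, 28.2 and 20.8 CPM, and Ifit1 at 20.6, 23.9 and 17.1 CPM. All 4 were lowest at 10 days, although the interval of Ifit1 against chow (0.668 to 1.03) included 1. Ifit3 and Ifit3b are close copies, but their last 400 bases were 49.0% identical. Of the 50-base words in the last 400 bases of Ifit3, 19.1% also occur in Ifit3b. None of the words from that end of Ifit3b occur in Ifit3. The division of UMIs between the pair is uncertain to that extent.

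Oligoadenylate synthetases sense double-stranded RNA and make the messenger that activates RNase L, and their members here differed in their course. Oas2 was at 52.2, 72.8 and 53.0 CPM, with a 3-day ratio of 1.39 (1.251 to 1.55) and a 10-day ratio of 1.01 (0.893 to 1.15). Within the 8 Kupffer-like clusters Oas2 was above chow in 5 at 3 days and below chow in 7 at 10 days. Its chow-like 10-day level is thus one of the sum over all Kupffer-like cells. Oasl2 was at 80.9, 90.5 and 47.1 CPM, with a 10-day ratio of 0.582 (0.515 to 0.657). Oas3 was at 68.7, 76.2 and 50.8 CPM, and Oasl1, an inactive relative, was at 30.3, 34.3 and 23.8 CPM. Both were highest at 3 days and lowest at 10 days. Oas1a was lower at each later time with 39.8, 32.6 and 23.0 CPM, but 43.6% of the words near its 3′ end also occur in Oas1g and its level is uncertain. Oas1g was at 16.1, 16.7 and 12.5 CPM.

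The 9 genes that restrict viruses or block translation were as a group at 1.11 of chow (1.08 to 1.13) at 3 days and 0.978 (0.955 to 1.00) at 10 days. Without Samhd1 the other 8 were at 1.10 (1.07 to 1.13) and 0.921 (0.896 to 0.947), so the 10-day closeness to chow rested largely on that gene. Samhd1, an enzyme that destroys nucleotides needed for viral DNA synthesis, was at 376, 426 and 432 CPM. Trim30a, a ubiquitin ligase that limits inflammatory signalling, was at 243, 303 and 279 CPM, and Slfn2, a Schlafen family member, was at 245, 327 and 278 CPM. Summed over all Kupffer-like cells, these 3 abundant genes were higher than chow at both times. Their 10-day ratios were 1.15 (1.10 to 1.20), 1.15 (1.08 to 1.21) and 1.14 (1.07 to 1.20) in that order. Within the 8 Kupffer-like clusters, Samhd1 and Trim30a at 10 days were each below chow in 5 and above in 3. Slfn2 was above chow in 6 of the 8 at that time. Bst2, or tetherin, which holds budding virus at the cell surface, was the reverse at 439.8, 371 and 303 CPM. Rsad2, or viperin, makes a chain-ending nucleotide and was at 71.6, 93.7 and 71.7 CPM, so its summed level at 10 days was that of chow. At 10 days 45 of its 586 UMIs were in 1 cell, and it was below chow in 7 of the 8 Kupffer-like clusters. Outside the small cluster led by Cxcl10, described below, it was at 65.3 CPM at 10 days and 71.6 CPM in chow. Cmpk2, its neighbour on chromosome 12, was at 28.0, 34.5 and 25.1 CPM. Eif2ak2, the gene of the kinase PKR, was at 47.5, 50.8 and 40.4 CPM, and Slfn5 at 52.7, 59.4 and 44.0 CPM. Mx1, a GTPase that blocks influenza virus, was the scarcest of the 37 at 11.6, 12.5 and 7.83 CPM, from 126, 141 and 64 UMIs.

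Other induced genes without a shared role were at 0.817 of chow (0.803 to 0.831) at 3 days and 0.576 (0.564 to 0.588) at 10 days. Without Ifi27l2a the 6 remaining genes were at 0.976 (0.950 to 1.004) and 0.746 (0.722 to 0.771), so the 3-day value rested on that gene. Ifi27l2a led them with 1704, 1244 and 822 CPM, a 10-day ratio of 0.482 (0.469 to 0.496). It was below chow in all 8 Kupffer-like clusters at both times. Lgals3bp, a secreted glycoprotein that binds galectins, was at 476, 472 and 364 CPM. Rtp4 was at 214, 194 and 151 CPM, and Parp14, an enzyme that adds ADP-ribose, at 113, 124 and 91.1 CPM. Xaf1, a partner of the apoptosis inhibitor XIAP, was at 53.9, 53.2 and 35.6 CPM, with a 10-day ratio of 0.661 (0.572 to 0.762). Ifi35 was at 57.5, 52.3 and 43.9 CPM and Ifi44 at 20.3, 16.9 and 12.1 CPM. All 7 genes were lowest at 10 days. The plot of levels places every member beside the others of its role.

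**Figure D3:**
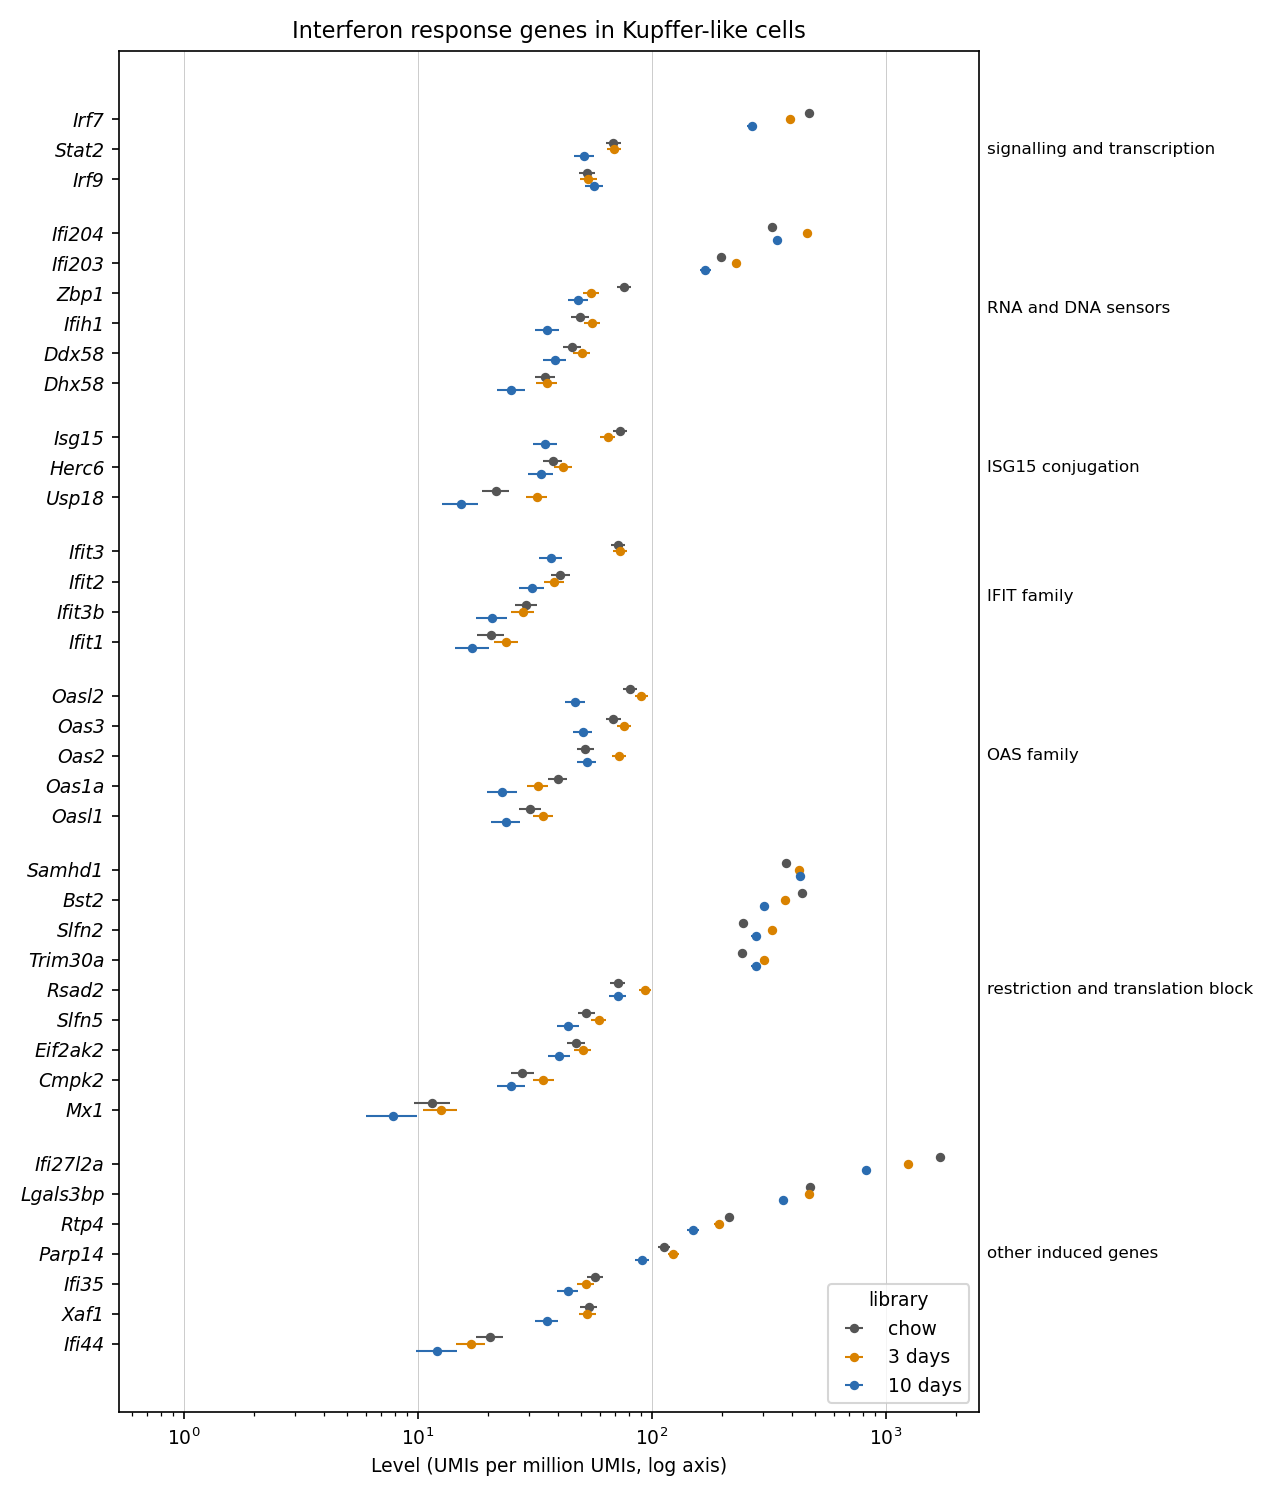
Level of each of the 37 genes in Kupffer-like cells in CPM on a log axis, by library, with 95% Poisson intervals for counting error, grouped by role. Levels run from 7.83 (Mx1 at 10 days) to 1704 (Ifi27l2a in chow), and the blue 10-day points are the leftmost for most genes but not for Samhd1, Slfn2, Trim30a, Ifi204, Irf9, Oas2 and Rsad2.

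Clusters within the Kupffer-like cells were made without the 37 genes and the other interferon genes listed below. Their make-up differed between libraries: the cluster led by Cxcl13 held 1440 chow, 145 3-day and 181 10-day cells, and 4 other large clusters were also mostly from 1 library. Even so, the summed level at 10 days was below chow in each of the 8 clusters, with ratios from 0.669 to 0.817. At 3 days 7 of the 8 were below chow, with ratios from 0.753 to 1.02. With each cluster given equal weight the median log2 ratio of the members at 3 days over chow turned to -0.10.

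One small cluster stood out for Isg15. It was led by the chemokine genes Cxcl10, Ccl7, Cxcl9 and Cxcl2 and held 20, 43 and 50 cells. Relative to the other Kupffer-like cells of the same library, Isg15 there was at a ratio of 3.02 (1.84 to 4.70) in chow, 3.35 (2.30 to 4.73) at 3 days and 3.01 (1.79 to 4.80) at 10 days. Slfn2 and Parp14 were the other members with intervals above 1 in this cluster in all 3 libraries. Their ratios were 1.70, 1.45 and 1.66 for Slfn2 and 2.64, 1.56 and 1.84 for Parp14. Further members, Oasl1 and Ifit1 among them, had ratios above 1 in all 3 libraries, but not every interval was. At 10 days 1 cell of this cluster held 10 of its 12 Ifit1 UMIs and 10 of its 22 Oasl1 UMIs. The same cell held 6 of the 19 Isg15 UMIs of the cluster. Ratios of single members without that cell were not computed, so the 10-day ratios of these genes rest in part on it. The share of all measured genes higher in this cluster was not computed. No member had its whole interval below 1 there in all 3 libraries. Ifi27l2a came close, at 0.708 (0.582 to 0.853), 0.857 (0.733 to 0.996) and 0.842 (0.702 to 1.001). Oas2 also had ratios below 1 in all 3, at 0.834, 0.938 and 0.696, with intervals that included 1.

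Per cell, the summed UMIs of the 37 genes varied between cells of each library. Cells were thinned to 1500 UMIs to remove the difference in depth, which left out 111 chow, 316 3-day and 232 10-day Kupffer-like cells with fewer. The mean sum was 8.94 ± 3.89 UMIs (SD over 2178 cells) in chow, 8.65 ± 4.02 (3120 cells) at 3 days and 6.54 ± 3.40 (2279 cells) at 10 days. Unthinned, the means were 28.7, 19.1 and 14.4 UMIs. The medians after thinning were 8, 8 and 6 UMIs and the upper quartiles 11, 11 and 8 UMIs. The 5th percentiles were 4, 3 and 2 UMIs and the 95th 16, 16 and 12 UMIs, so the 10-day library was lower at both ends. The top 5% of cells held 10.5%, 10.8% and 11.6% of the summed UMIs.

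**Figure D4:**
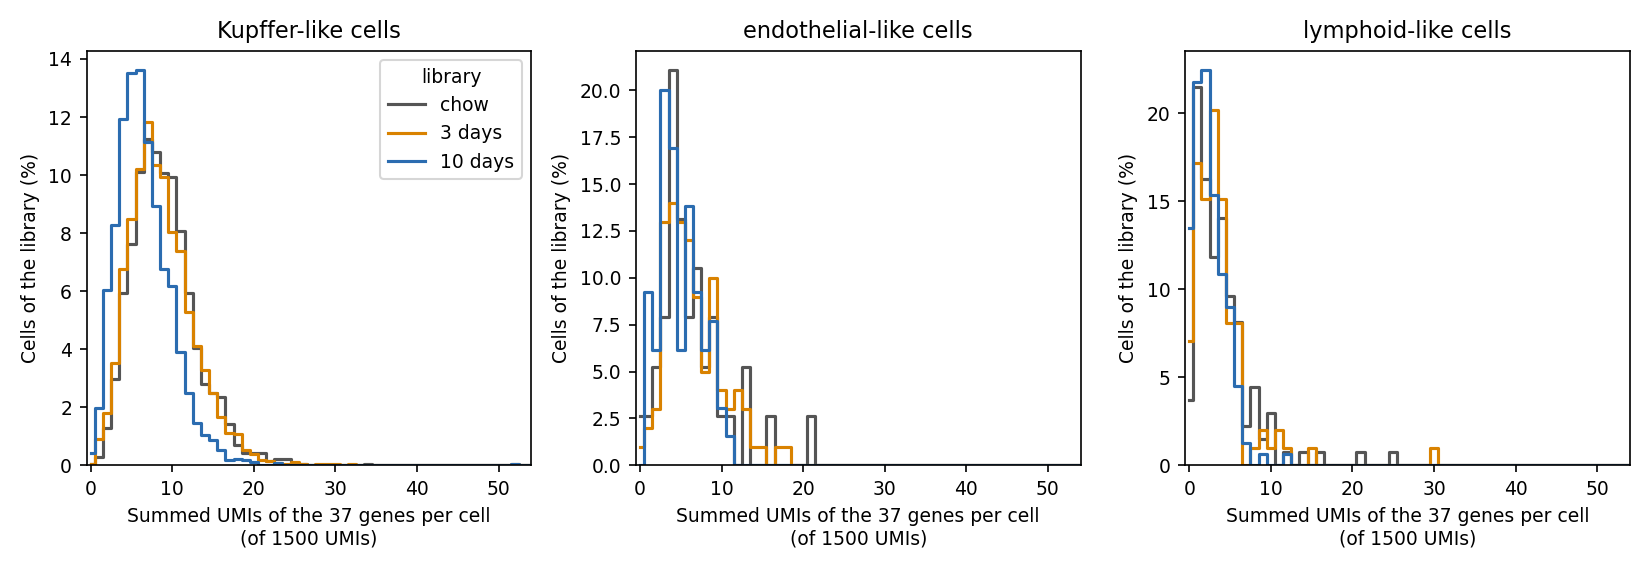
Share of cells (%) by the summed UMIs of the 37 genes after each cell was thinned to 1500 UMIs, for Kupffer-like, endothelial-like and lymphoid-like cells of each library. In Kupffer-like cells the 10-day curve (median 6) is shifted to the left of chow and 3 days (medians 8), and lymphoid-like cells sit lowest.

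The genes best known as antiviral effectors were examined apart. The 4 IFIT genes, the 5 OAS genes, Isg15, Usp18, Rsad2, Cmpk2 and Mx1, a subset of 14 chosen after the files had been seen, gave a mean of 0.970, 1.07 and 0.709 UMIs per thinned Kupffer-like cell. Cells with 0 UMIs of the subset made up 42.0%, 41.1% and 54.5%. The variance over the mean was 1.39 in chow, 1.71 at 3 days and 2.14 at 10 days. Without the highest cell of each library it was 1.33, 1.60 and 1.40, so the 10-day value rested on 1 cell. Cells with at least 5000 CPM of the subset numbered 2 of 2289, 9 of 3436 and 3 of 2511. In percent this was 0.087 (0.011 to 0.315), 0.262 (0.120 to 0.497) and 0.119 (0.025 to 0.349), with intervals that overlap. These cells had medians of 4304.5, 1911 and 4381 UMIs before thinning, beside 4479, 2977 and 3001 for all Kupffer-like cells.

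The highest 10-day cell held 123 UMIs of the subset among 6631, with all 14 genes seen and 45 UMIs of Rsad2. It also held 27 UMIs of Clec4f and 33 of Cd5l, both Kupffer markers, and belonged to the cluster led by Cxcl10. This cell supplied 3.28% of the subset's UMIs in its library, and the 10-day level of the subset was 458 CPM with it and 444 CPM without it. Of its genes, Mx1 owed 7.81% of its 10-day UMIs to it, Rsad2 7.68% and Ifit1 7.14%.

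Across Kupffer-like cells the members varied together only weakly. None of the 666 pairs of members had a Pearson r above 0.2 in thinned counts, and the median was 0.0149. Genes were ranked by the mean over the libraries of their r with the per-cell sum of the members, leaving the gene itself out. Of the 50 first genes of 7936, 20 were members, led by Ifit3 at a mean r of 0.139 and Isg15 at 0.128. The 10 first genes outside the list were Ifitm3, Mnda, Plac8, Gm4955, Tmsb4x, Mndal, Ly6e, Pydc4, Rnf213 and Serpina3g, with mean r from 0.0855 to 0.141. These values share cells and depth within each library, and in such sparse counts they are a description and no finding.

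The genes that make the signal were close to undetectable. None of 20 genes of type I and type III interferons, Ifnb1 and the Ifna genes included, had a UMI in Kupffer-like cells of any library, where 3 UMIs would make 0.276, 0.267 and 0.367 CPM. Over all kept cells they had 1 UMI, in chow. Ifng, the type II interferon, came from lymphoid-like cells at 72.9 CPM in chow (41 UMIs), 363 CPM at 3 days (113 UMIs) and 27.9 CPM at 10 days (12 UMIs). At 3 days 60 of the UMIs were in 1 cell and 98 in 5 of the 17 cells with any.

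Receptors stayed within 1.5-fold, as did most measured genes. Of 6 receptor genes 5 were measured in Kupffer-like cells and none passed 1.5-fold in any comparison. For 3 days over chow, 10 days over chow and 10 days over 3 days, 3.43%, 3.9% and 2.36% of measured genes were above 1.5. Below 1/1.5 were 1.33%, 2.6% and 1.98%, so none of 5 genes is no trait of receptors. Ifnar1 was at 52.3, 48.3 and 40.5 CPM, Ifnar2 at 255, 235 and 241 CPM, and Ifngr1 at 496, 694 and 599 CPM. Among the signalling genes Irf1, a factor induced mainly by interferon-gamma, was above 1.5 at 10 days over 3 days with 129, 87.8 and 146 CPM. In that comparison 2.36% of all measured genes were above 1.5. Among 13 measured genes of upstream sensing, Ikbke, Mavs and Tlr4 were above 1.5 at 10 days over chow, as were 3.9% of all measured genes. Mavs, the adaptor of RIG-I and MDA5, was at 44.7, 57.7 and 69.0 CPM, and Tlr4, the receptor for bacterial endotoxin, at 47.2, 59.4 and 73.3 CPM. Tlr7, a receptor for single-stranded RNA, was at 53.3, 66.1 and 41.3 CPM and below 1/1.5 at 10 days over 3 days, as were 1.98% of all measured genes. Of 4 measured inhibitors none passed 1.5-fold, beside the same small shares of all measured genes.

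A wider list of 52 other interferon-induced genes held 43 in the matrices and 38 measured in Kupffer-like cells. At 3 days over chow 1 was above 1.5 and 0 below 1/1.5, beside 3.43% and 1.33% of all measured genes. At 10 days over chow 1 was above 1.5 and 6 below 1/1.5, beside 3.9% and 2.6%, and the median log2 ratio was -0.10, beside 0.08. Trim25, a ubiquitin ligase that activates RIG-I, was the one above, with 85.6, 156 and 129 CPM. Ms4a4c was lowest at 22.3, 18.2 and 9.54 CPM, and Tap1, a peptide pump for antigen presentation, was at 93.2, 76.0 and 56.7 CPM. Ifitm3, which blocks virus entry, was at 1917, 1611 and 1263 CPM.

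Genes induced mainly by interferon-gamma are given for comparison. Of 25, 19 were measured, and 4 were below 1/1.5 at 3 days over chow, beside 1.33% of all measured genes. Serpina3g, a protease inhibitor, was at 35.9, 13.3 and 19.1 CPM, Gbp2, a guanylate-binding protein, at 57.3, 28.9 and 32.7 CPM, and Ciita, the master regulator of MHC class II, at 14.7, 7.92 and 8.56 CPM. Cxcl9, a chemokine that draws T cells, was at 34.9, 21.3 and 37.7 CPM. At 10 days over chow 5 were below 1/1.5, beside 2.6%, and the median log2 ratio of the measured genes was -0.29 at 3 days and -0.33 at 10 days, beside 0.04 and 0.08 for all measured genes. The difference between both lists was not tested.

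Endothelial-like cells carried the response genes at a summed level of 4149, 4614 and 3560 CPM. These cells were few, with 572, 1448 and 819 UMIs of the members. The endothelial markers summed to 36704, 29050 and 29164 CPM in them, with all 29 detected in each library. RNA of Kupffer cells was present too. Genes restricted to Kupffer cells, 11 in all, were found there at medians of 25.5%, 32.1% and 32.3% of their Kupffer-like level. Part of this came from cells rich in Kupffer markers. Left without cells in which these markers made over 2% of UMIs, a limit that lowers such values by its construction, 36, 92 and 62 cells had medians of 8.98%, 9.02% and 8.56%. Members were read against the highest of the 11 in each library.

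Bst2 was the clearest endothelial member. It was at 1211 CPM in chow, 835 CPM at 3 days and 861 CPM at 10 days, which is 2.75 (2.35 to 3.21), 2.25 (1.98 to 2.55) and 2.84 (2.44 to 3.28) times the Kupffer-like level of the same library. Xaf1 was the other member above Kupffer-like cells in all 3 libraries, with ratios of 1.89, 2.45 and 1.83. Of the 7511 genes measured in Kupffer-like cells, 6.04% were above in all 3. Ifi44 had ratios of 2.50, 3.02 and 3.59, with an interval in chow from 0.993. Ifi203, Ifit2, Ifi35, Lgals3bp, Bst2, Xaf1 and Ifi44, 7 of the 37, were above the range of the Kupffer-restricted genes in all 3 libraries, beside 32.6% of measured genes. Another 9 were above it in none, among them Irf7 and Samhd1, beside 25.3%. Without the cells rich in Kupffer markers these counts were 15 and 8, and Samhd1 was no longer among the latter. The range of the Kupffer-restricted genes was itself lower without those cells. No share of all measured genes was computed for the counts of 15 and 8. Whether the change in counts was particular to the members was therefore not tested. Below the Kupffer-like level in all 3 libraries were 6 members, beside 7.63% of measured genes, namely Irf7, Ifi204, Samhd1, Slfn2, Trim30a and Ifi27l2a.

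By diet, 17 members were measured in endothelial-like cells, at a mean of at least 50 CPM. At 3 days over chow 7 were above 1.5 and 1 below 1/1.5, where 15.3% of 3422 measured genes were above and 14% below. In that comparison 4 members were below 1, beside 50.9% of measured genes. The 7 above 1.5 were Ifi204, Isg15, Trim30a, Slfn5, Slfn2, Rsad2 and Parp14. Of these, Ifi204 had a ratio of 1.85 (1.10 to 3.30). Without cells in which Kupffer markers made over 2% of UMIs, the ratio of Ifi204 was 0.877 (0.479 to 1.65). The count of 7 was not made again without those cells. For 10 days over chow 1 was above and 4 below, with 14.8% and 14.6% of measured genes, and 10 were below 1, beside 51.2%. In 10 days over 3 days 0 were above and 5 below, with 11.3% and 10.9%, and 14 were below 1, beside 49.1%. The sum at 3 days over chow was 1.11 (1.01 to 1.23), and without cells in which Kupffer markers made over 2% of UMIs it was 1.02 (0.901 to 1.15), from 36, 92 and 62 cells. The 10-day sum over chow was 0.858 (0.770 to 0.956), and 0.751 (0.654 to 0.861) without those cells. Bst2 was lower than chow at both times, with ratios of 0.689 (0.565 to 0.842) and 0.711 (0.575 to 0.878). Left without the same cells these were 0.727 (0.587 to 0.904) and 0.817 (0.651 to 1.03), so the 10-day interval then included 1.

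Lymphoid-like cells held the least, with summed levels of 2742, 2650 and 1686 CPM. Their make-up was not the same in each library. T- and NK-like cells numbered 117, 90 and 153 and B- or plasma-like cells 21, 10 and 12, and the B and plasma markers summed to 25416, 1401 and 1588 CPM. Kupffer markers in these cells summed to 7206, 6261 and 3311 CPM and so moved with the members. In T- and NK-like cells alone the Kupffer markers were at 3886.5, 3437 and 3275 CPM and the members at 2487, 2416 and 1676 CPM. Their 10-day ratio was 0.674 (0.612 to 0.742) of chow, beside 0.615 (0.562 to 0.672) for all lymphoid-like cells.

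Against Kupffer-like cells no member was higher in lymphoid-like cells in all 3 libraries, and 23 were lower in all. The shares of measured genes were 9.32% higher and 22.6% lower. The 11 Kupffer-restricted genes had medians of 13.7%, 13.5% and 7.35% here, and of 8.52%, 7.45% and 7.35% without cells rich in Kupffer markers. The 5% of cells with the most held 48.6%, 50.1% and 11.7% of the Kupffer-marker UMIs. Above the range of these genes in all 3 libraries were 13 members, beside 61.5% of measured genes, and 14 without the marker-rich cells. Isg15 was at 90.6, 64.2 and 69.9 CPM, or 1.24 (0.912 to 1.64), 0.986 (0.599 to 1.53) and 2.00 (1.32 to 2.91) times the Kupffer-like level. Slfn2, which is needed for T cell quiescence, was at 254, 299 and 247 CPM, level with Kupffer-like cells. Zbp1 was at 88.8, 83.5 and 46.6 CPM and Ifi203 at 194, 315 and 189 CPM. In no library did 16 members exceed that range, beside 15.3% of measured genes, and 14 without the marker-rich cells. Ifit3, Oasl2, Rsad2 and Ifi204 were among them both ways. No share of all measured genes was computed for either count of 14 without the marker-rich cells.

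Of the 12 members measured in lymphoid-like cells, 1 was above 1.5 and 1 below 1/1.5 at 3 days over chow, where 9.99% and 5.2% of 2482 measured genes were. Of the 12, 9 were below 1, beside 42.2% of measured genes. For 10 days over chow 0 were above and 8 below, with 6.41% and 11.8% of measured genes, and all 12 were below 1, beside 52.7%. In 10 days over 3 days 0 were above and 5 below, with 5.28% and 15%, and 11 were below 1, beside 59.5%. Ifi27l2a, at 819, 771 and 370.2 CPM, had the lowest 10-day ratio among them, 0.452 (0.375 to 0.542). Bst2 was at 183, 173 and 90.8 CPM, with a 10-day ratio of 0.496 (0.334 to 0.724). Irf7 had a 10-day ratio of 0.511 (0.301 to 0.840), and of 1.03 (0.561 to 1.88) without cells in which Kupffer markers made over 2% of UMIs. The plot of class ratios sets every member beside the Kupffer-restricted genes.

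**Figure D5:**
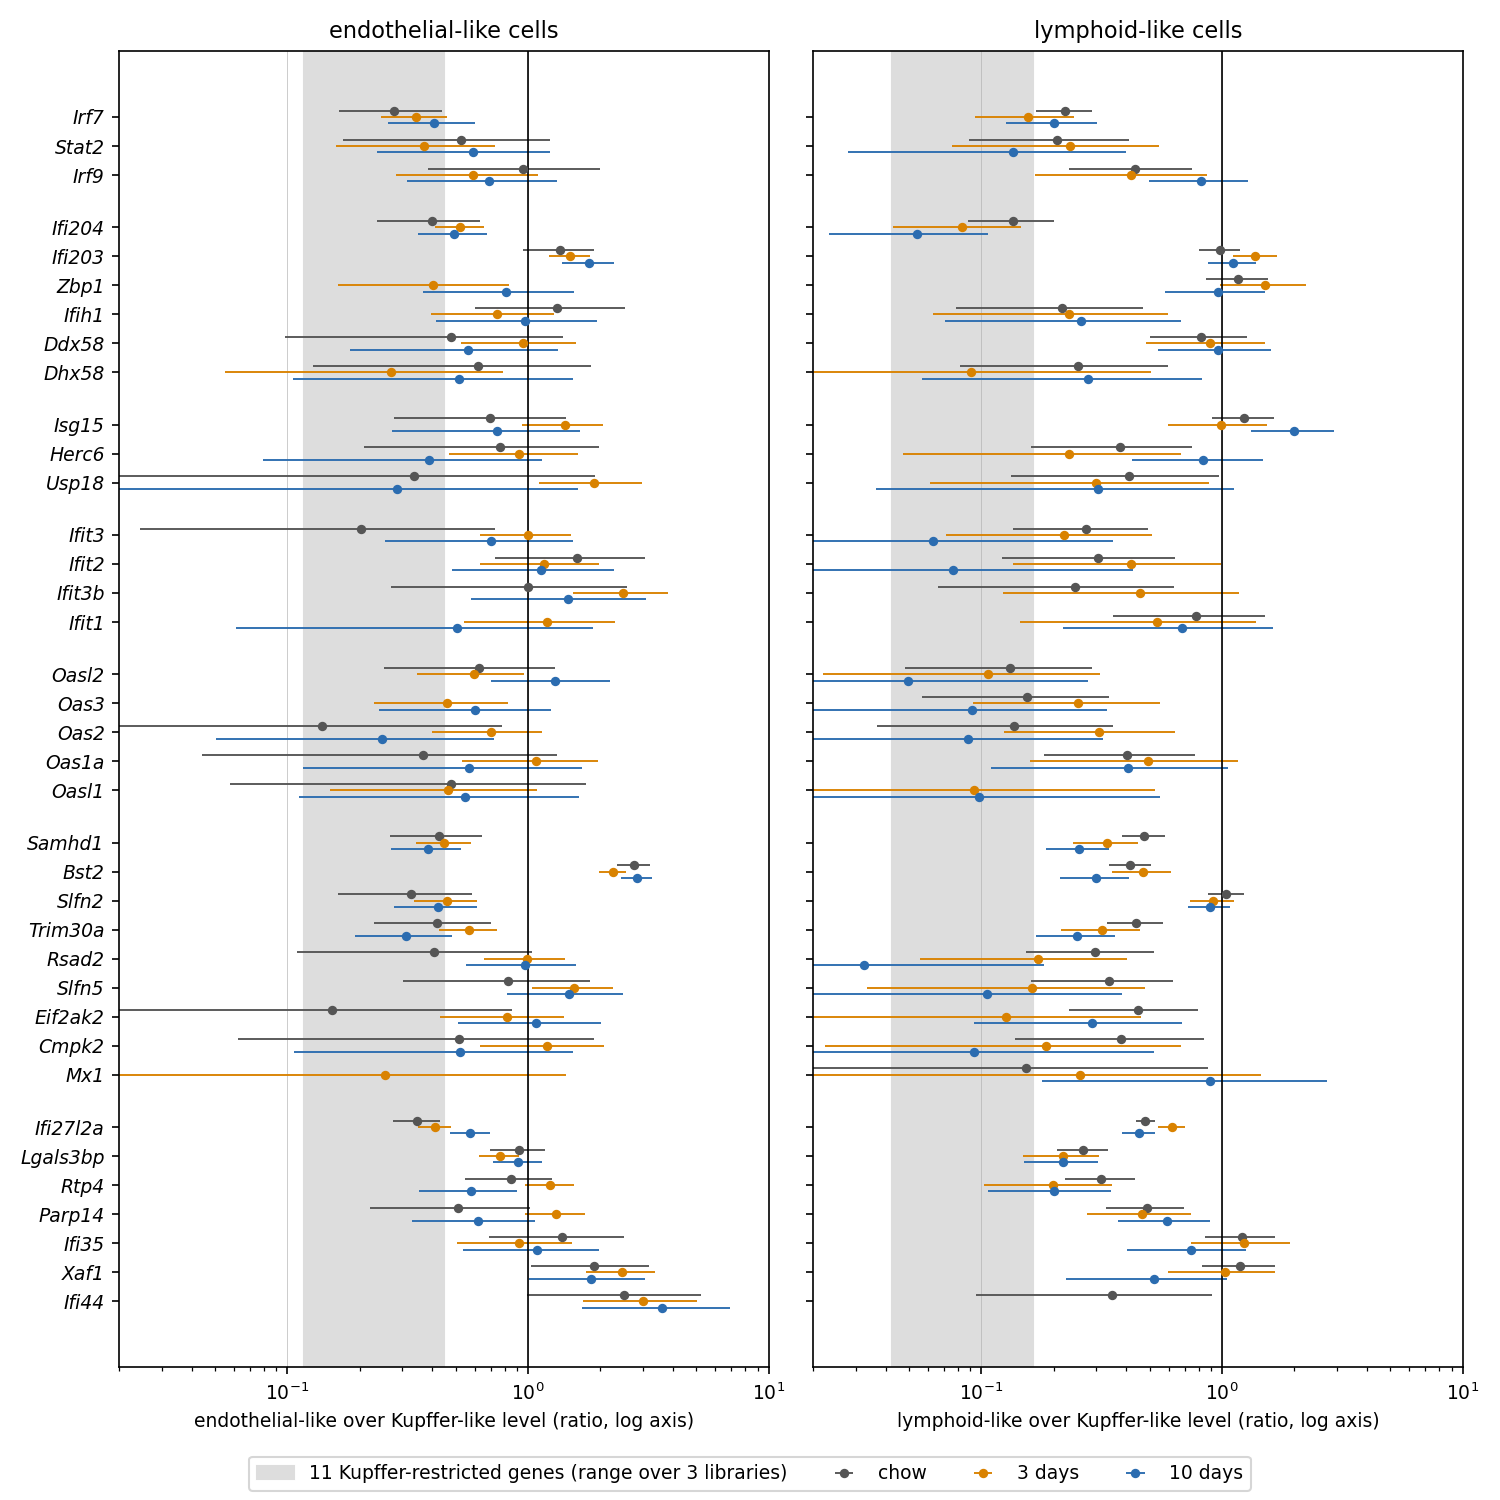
Level of each of the 37 genes in endothelial-like (left) and lymphoid-like (right) cells divided by its level in Kupffer-like cells of the same library, on a log axis, with 95% intervals for counting error; genes with 0 UMIs have no point. Grey bands span 11 Kupffer-restricted genes over the libraries. Bst2 and Xaf1 lie to the right of 1 in all libraries on the left side.

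Barcodes of 10 to 100 UMIs, which hold free RNA more than cells, carried the members at 5740, 5602 and 4005 CPM. Their 10-day ratio to chow was 0.698 (0.683 to 0.713), beside 0.732 in Kupffer-like cells. Oas2 and Mx1 were over 1.5 times higher in these barcodes than in Kupffer-like cells in all 3 libraries, Oas2 by 2.44, 2.93 and 2.87 times. Slfn5, Eif2ak2 and Oas1a were under 1/1.5 of the Kupffer-like level in all 3, Slfn5 at 0.378, 0.430 and 0.384. Oas2 overlaps a gene on the opposite strand, Gm43068, in GENCODE vM21.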

How the data were processed

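The deposited values are raw UMI counts of all genes in all barcodes, with cells not yet chosen, 1 matrix per library. Per the labels, the 10x Genomics Chromium 3′ kit v2 was used, and the submitters' processing notes name Cell Ranger 2.2.0 and the builds GRCm38 and mm10. Which annotation release was used, and whether strand was, is not given in the sources used here. Clustering joined the 3 libraries with no batch correction. Scrublet (scanpy 1.11.5) marked 0% of cells, so the 4% with the highest scores were removed (111, 162 and 121 cells). The clustering used 2000 variable genes, members and listed interferon genes left out, 30 components, 15 neighbours and Leiden resolution 0.6 (igraph 0.11.9). Clusters were named where at least 3 fixed markers of a type were among the 25 leading genes, or as Kupffer-like where the median level of Kupffer markers reached 0.5 of the value over all cells. Clusters meeting both, and 1 with dendritic and monocyte markers, were left unnamed and not used.

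Counts of each class were summed per library and divided by the class total (CPM). A UMI marks a 3′ end, so levels were not divided by gene length. Log2 ratios had 1 CPM added, and printed ratios nothing. Levels have exact Poisson intervals, ratios exact conditional binomial ones. No test was run, with 1 library a group. The steps were tested on simulated data. Members and lists were chosen with earlier results of these data known. Named genes are all 37 members, the genes of each pathway list past 1.5-fold (up to 4 a list), all ligands and the 10 genes with the highest mean r. Receptors are named as examples beyond that rule. One gene of the signalling list is not reported here. Gene positions and overlaps came from GENCODE vM21 (GRCm38), promoters from RefSeq (GRCm38.p6). Alternatives covered cell filters, doublets, scaling (edgeR 4.0.16 TMM), weighting, thresholds and left-out genes. Leaving out cells rich in Kupffer markers, the highest cell or the most abundant gene of a role was added after the data had been seen. No other columns of sample values were present.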

Additional observations from a re-analysis of the deposited data

Results flagged for a closer look

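In 3 results the direction by diet, in levels summed over all cells of a class, differed between cell classes beyond counting error. With 1 library a group the differences themselves were not tested.

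The summed level of the 37 genes at 3 days over chow was 0.967 (0.957 to 0.978) in Kupffer-like cells and 1.11 (1.01 to 1.23) in endothelial-like cells. Left without cells in which Kupffer markers exceeded 2% of UMIs, the endothelial-like ratio was 1.02 (0.901 to 1.15). Without Ifi27l2a both classes were above chow, at 1.06 (1.05 to 1.07) and 1.15 (1.04 to 1.28).

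Ifi204 at 10 days over chow was at 1.05 (1.00 to 1.11) in Kupffer-like cells and at 0.419 (0.163 to 0.959) in lymphoid-like cells, from 25 chow and 8 10-day UMIs. Within the 8 Kupffer-like clusters Ifi204 was below chow in 6 and above in 2, so the Kupffer-like direction did not hold within most clusters. Without cells rich in Kupffer markers the lymphoid-like ratio was 0.846 (0.296 to 2.31), from 11 and 8 UMIs. Ifi204 was above the range of the Kupffer-restricted genes in lymphoid-like cells of no library. With so few UMIs, how much of its level there was RNA of Kupffer cells was not tested.

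Samhd1 at 10 days over chow was at 1.15 (1.10 to 1.20) in Kupffer-like cells and at 0.616 (0.426 to 0.879) in lymphoid-like cells. Without cells rich in Kupffer markers the lymphoid-like ratio of Samhd1 was 0.710 (0.483 to 1.03). Within the 8 Kupffer-like clusters Samhd1 was below chow in 5 and above in 3.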

How the results depend on the processing

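No paired analysis was possible because each group is 1 library. Leaving out a replicate was not possible for the same reason. Of 888 single-gene values in Kupffer-like cells under other settings, 793 stayed within the counting interval of the reported value, 95 moved outside it and 0 called values changed sign. The summed level at 3 days over chow became 0.948 with TMM scaling, 0.928 with clusters weighted equally and 1.06 without Ifi27l2a. For 10 days over chow it became 0.749 with a mitochondrial limit of 5%, 0.706 with TMM, 0.747 with equal clusters and 0.830 without Ifi27l2a. For 10 days over 3 days these 4 settings gave 0.770, 0.744, 0.806 and 0.783. Equal clusters gave median log2 ratios of -0.10 for 3 days over chow, against 0.11 as reported and so reversed, and of -0.29 for 10 days over 3 days. Members above 1.5 at 3 days over chow numbered 1 with the 5% limit, without doublet removal or with cells weighted equally. The shares of all measured genes above were 5.33%, 3.38% and 3.43% in that order. At a fold limit of 5/4 members above numbered 5, where 14.8% of all measured genes were above and 8.63% below. Members below numbered 1 with equal clusters (3.22% of measured genes) and 2 at the lower limit. Between 10 days and chow 14 of 36 measured members were below with the 5% limit, beside 4.13% of measured genes. At the lower limit 22 were below (10.9%). For 10 days over 3 days 5 were below with equal clusters (2.67%) and 28 at the lower limit (9.41%). In endothelial-like cells the sum at 3 days over chow was 1.29 without Bst2, and at 10 days over chow 0.751 without cells rich in Kupffer markers. In lymphoid-like cells the sum was 1.08 at 3 days with the 5% limit. For 10 days over chow it was 0.674 in T- and NK-like cells, 0.684 without Ifi27l2a and 0.696 without cells rich in Kupffer markers. The causes were not tested, apart from the genes or cells each setting leaves out. The variance over the mean of the per-cell sum at 10 days was 1.76, 1.44 when cells were thinned to 1000 UMIs and 1.63 without the highest cell. Members near the 10 CPM limit, such as Mx1, and nearly all members in the few endothelial-like and lymphoid-like cells are limited by their UMI counts.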

Other observations

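The unnamed cluster with markers of dendritic cells and monocytes belonged to none of the described classes. In it the 37 genes summed to 3893 CPM in chow, 4261 CPM at 3 days and 3901 CPM at 10 days, from 71, 66 and 52 cells. Hepatocyte-like cells, 7, 8 and 18 in number, carried them at 3156, 787 and 1507 CPM. The largest of 3 clusters that held Kupffer markers together with those of another type, here T and NK cells, stood at 5190, 5088 and 3870 CPM.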
